A study of Caenorhabditis elegans with 2 samples.

Results

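Below the peaks that passed the authors' irreproducible discovery rate (IDR) threshold, 522 of 30000 pooled regions of ZTF-11 chromatin immunoprecipitation signal recurred in both replicates without being called as peaks. They were chosen from the pooled list by 2 conditions. A region was not in the IDR list, and a summit (the position of strongest signal) lay within 100 bp of its own summit among the 5000 strongest regions of replicate 1 and also among the 5000 strongest of replicate 2. Outside the IDR list the pooled list held 28125 regions. All 522 enter the shares below, and only some are named. They are called the reproduced regions here. Since pooled and replicate signals chose them, those signals are given as a description only, with no test.

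ZTF-11 belongs to the MYT1 family of zinc-finger transcription factors, which in vertebrates is known for repressing non-neuronal genes during neuronal differentiation, and in C. elegans ZTF-11 is known for a role in making neurons. Chromatin immunoprecipitation followed by sequencing (ChIP-seq) recovers the DNA to which a protein is bound, directly or through other proteins. IDR ranks the signals of replicates and keeps those whose order is reproducible, and it can fix how many regions of the pooled list are kept. Here the IDR peaks were exactly pooled ranks 1 to 1875, so every region left out, the 522 included, had a lower pooled signal than each IDR peak or equalled the last of them.

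The samples were whole hermaphrodite larvae of the first stage (L1), collected 6 h after synchronization, which started from larvae starved after bleaching. Strain OP511 carries unc-119(tm4063) III and the integrated transgene wgIs511, which makes ZTF-11 with a C-terminal GFP-FLAG tag. The description names an anti-GFP antibody while the antibody label reads ztf-11, and the description is followed here. Chromatin was sheared by sonication. Both samples are biological replicates of 1 group and come from 1 transgenic line, so there is no comparison between conditions and no p-value. Whole larvae mix all tissues, and signal present in few cells cannot be told apart from weak signal in many. The control library was not analysed here, and read depth is unknown. Peak signal is the authors' value for each region and its scale differs between lists, so ranks are used across lists.

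Positions are on ce11 (WBcel235), counted from 1. Beside the reproduced regions stand 3 other sets of the pooled list: the 1875 IDR peaks, the 3105 regions of the same pooled ranks (1877 to 5503) that did not meet the rule, and the last 11250 regions of the list, taken as background. Brackets after a share give its 95% Clopper-Pearson limits (exact, for counting error alone), and differences between the sets were not tested.

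A minority of these regions shared short motifs under their summits, with GAGAGA in 19.2% and CTGCGTCT in 6.13%. Windows of 101 bp centred on the summit were searched for 7 short motifs on both strands, and the first group below shows sites of CTGCGTCT, in capitals, read along the strand that carries it. They come from the strongest reproduced regions that hold this motif on the chromosomes shown, with the nearest coding gene as the name. The acs-4 site is at chrIII:7166822-7166859 (plus strand), the frl-1 site at chrIII:2132238-2132275 (minus), the unc-26 site at chrIV:13272661-13272698 (minus) and the site in an intron of zfp-1, whose nearest coding 5' end is that of ztf-1, at chrIII:8794939-8794976 (minus).
acs-4: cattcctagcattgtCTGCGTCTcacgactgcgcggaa
frl-1: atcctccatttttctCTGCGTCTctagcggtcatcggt
unc-26: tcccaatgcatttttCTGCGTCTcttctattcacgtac
ztf-1: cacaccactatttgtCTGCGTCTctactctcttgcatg

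In each of these 4 sites a T stands before the 8 letters and a C after them. That context held for 27 of the 32 reproduced regions with the motif (84.4%), and for 132 of 164 IDR peaks with it (80.5%). It held for 46 of 73 such sites among the other regions of the same ranks (63%) and for 44 of 75 in background (58.7%). The neighbouring bases were looked at after the motif shares had been seen.

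The second group shows GAGAGA in capitals, again on the strand that carries it. The F33H1.4 site is at chrII:10174512-10174547 (plus), the lit-1 site at chrIII:13713910-13713945 (minus) and the rpb-8 site at chrIII:4918141-4918176 (minus).
F33H1.4: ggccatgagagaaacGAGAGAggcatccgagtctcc
lit-1: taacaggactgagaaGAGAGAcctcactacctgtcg
rpb-8: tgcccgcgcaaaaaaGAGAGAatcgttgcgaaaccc

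GAGAGA lay in 100 of the 522 summit windows (19.2%, 15.9 to 22.8). In windows centred 400 bp to each side the mean share was 5.46%, so the summit share was 3.51 times that of the flanks. IDR peaks held it in 23.8%, the other regions of the same ranks in 12.4% and background in 5.72%. CTGCGTCT was rarer and more concentrated: 32 reproduced regions held it (6.13%, 4.23 to 8.54) against 0.287% in the flanks, a ratio of 21.3. Among IDR peaks the share was 8.75%, among the other regions 2.35% and in background 0.667%. Both motifs lay in the same window in 17 reproduced regions, which is 53.1% of those with CTGCGTCT and 17% of those with GAGAGA, and in 7 of them the letters overlapped. A match of this kind is a description of the sequence and not a binding site.

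Of the other motifs, all but GGCGGG were scarcer at the summit than beside it. AAGTT, the core that MYT1 proteins of vertebrates bind, lay in 65 summit windows (12.5%, 9.74 to 15.6) against 35.7% in the flanks. Its summit share was 13.2% in IDR peaks, 21.4% in the other regions and 31.7% in background. TTCGAA or TTTGAA, the CHR element of cell cycle promoters bound by MuvB complexes, was found in 18.6% of summits and 34.4% of flanks, and the TATA box, searched as TATAAA, in 5.94% and 10.2%. TGATAA, which GATA factors bind, was found in 4.79% of summits and 8.81% of flanks. GGCGGG went the other way, with 6.13% of summits against 1.72% of flanks, a ratio of 3.56. Its summit share was 7.73% in IDR peaks, 4.38% in the other regions and 2.34% in background. Base composition differed alongside, and its part in these shares was not tested. G and C made up 45.6% ± 9.44 of the 522 summit windows (SD over windows), and 35.3% and 35.0% of the flanks on either side. The mean was 48.9% in IDR peaks, 43.5% in the other regions, 38.2% in background and 35.4% in the whole genome.

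Matching to 1 replicate alone lowered the share with GAGAGA and raised that with AAGTT. With replicate 1 left out, so that a match in replicate 2 was enough, GAGAGA was found in 11.9% and AAGTT in 21.4% of summits. With replicate 2 left out the shares were 13.5% and 19.9%. These wider sets reach lower in the pooled list. Past pooled rank 10000 they held 713 regions without replicate 1 and 340 without replicate 2, while the reproduced regions ended at 5503. The part of lower rank in these shifts was not tested. The motif shares differed by location too. Of the 246 intergenic reproduced regions 23.6% held GAGAGA and 9.35% held CTGCGTCT. Of the 67 in coding exons 4 held GAGAGA (5.97%) and 0 held CTGCGTCT.

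**Figure D1:**
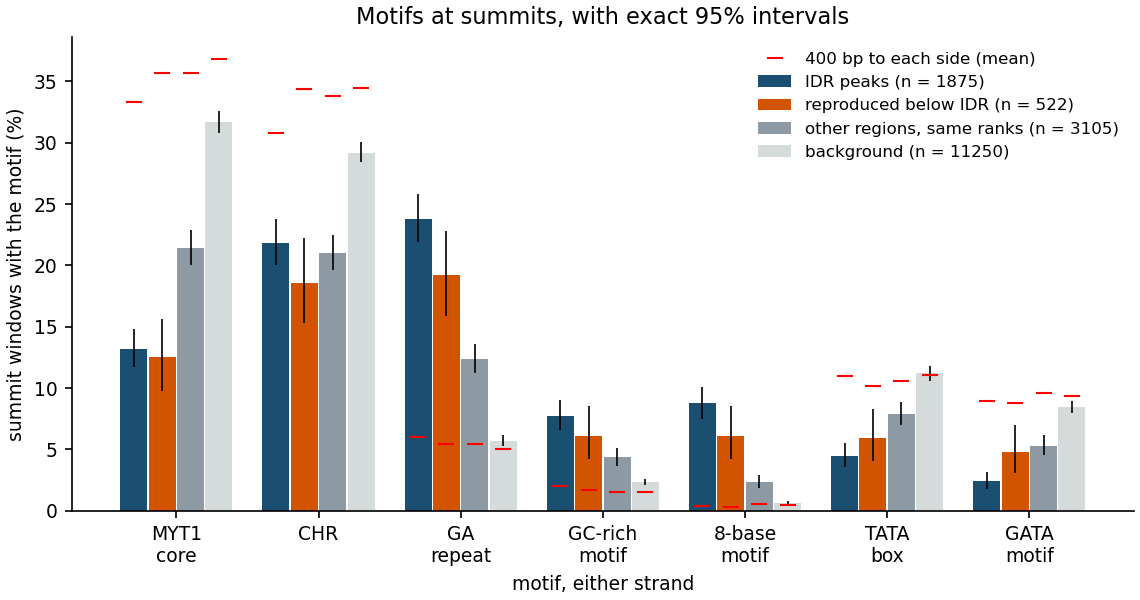
Bars give the share of summit windows (101 bp) that hold each motif on either strand, in percent, for the 4 sets of regions, with exact 95% intervals, and red dashes the mean share in windows 400 bp to each side. The MYT1 core stands for AAGTT, the GA repeat for GAGAGA, the GC-rich motif for GGCGGG and the 8-base motif for CTGCGTCT. Reproduced regions hold GAGAGA in 19.2% of summits against 5.46% of flanks, and AAGTT in 12.5% against 35.7%.

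The reproduced regions began right under the IDR list and thinned out quickly with rank. Of the 125 pooled regions ranked 1876 to 2000, 82 met the rule (65.6%, 56.6 to 73.9). The share was 47.0% of the 500 ranked 2001 to 2500, 26.6% of those ranked 2501 to 3000 and 6.30% of the 1000 ranked 3001 to 4000. Only 7 regions ranked 4001 to 5000 and 2 ranked 5001 to 7500 met it, and 0 of the 2500 ranked 7501 to 10000, an upper limit of 0.147%. Between ranks 1877 and 5503 the rule was met by 522 of 3627 regions (14.4%, 13.3 to 15.6), while 1415 had a match in replicate 1 alone, 806 in replicate 2 alone and 884 in neither. A match in replicate 1 alone was commoner than one in replicate 2 alone in every band down to rank 10000, and from rank 4001 a match in neither was the commonest of the 3. Dropping the demand on either replicate raised the number well past 1.5 times, to 2566 without replicate 1 and 2894 without replicate 2.

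**Figure D2:**
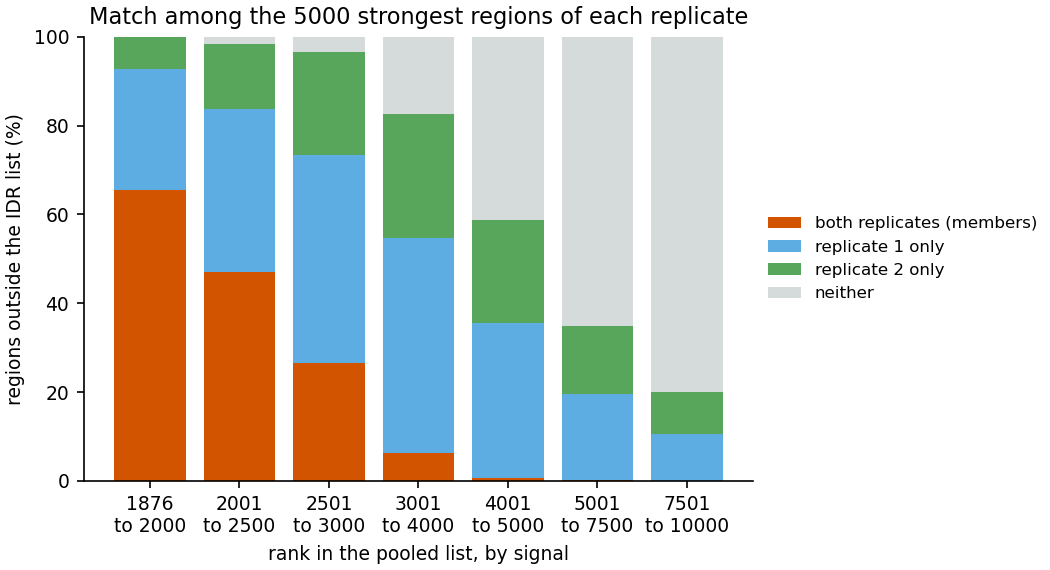
Share of pooled regions outside the IDR list, in percent, by band of pooled rank (x axis), split by whether a summit within 100 bp lay among the 5000 strongest regions of both replicates, of 1 replicate or of neither. The share matched in both falls from 65.6% at ranks 1876 to 2000 to 6.30% at ranks 3001 to 4000.

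The edge between the IDR list and these regions was narrow in signal. The reproduced regions had pooled signals from 38.3 to 66.1 (median 56.7), and the IDR peaks from 66.2 to 1071.7 (median 106.8). The authors' −log10 of the q-value ranged from 0.318 to 1.71 for the reproduced regions (median 1.22). Applied to the IDR peaks, the same demand on both replicates was met by 1689 of 1875 (90.1%, 88.6 to 91.4), so some IDR peaks had weaker replicate support than regions left out. The IDR peak nearest to clk-1, at pooled rank 1873, had its match at rank 1568 in replicate 1 and 9732 in replicate 2. The region nearest to hosl-1, at pooled rank 1876, was the strongest outside the list. It was matched at rank 1513 in replicate 1 and had no match among the 5000 strongest regions of replicate 2. A weaker match in replicate 2, such as the clk-1 peak had at rank 9732, is not excluded for it.

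Within the 522, the ranks in the 2 replicates were spread widely, inside limits that the rule itself set. In replicate 1 their ranks ran from 1027 to 4999 (median 2963.5) and in replicate 2 from 357 to 4995 (median 2889.5). Spearman's rho between the ranks was -0.045 over the 522 regions, which include neighbouring regions of the same libraries. The set was selected to lie in both top lists and outside the first 1875 pooled ranks. Both limits bear on this value and on the counts that follow, so these do not measure agreement of the replicates. The rank was within the first 1875 of replicate 1 alone for 37 regions, of replicate 2 alone for 78, and of both for 1, while 406 lay beyond it in both. The rule held matched summits within 100 bp, and inside that limit the median distance was 6.00 bp in replicate 1 and 21 bp in replicate 2, with 196 regions within 25 bp in both.

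The limits of the rule cut through a continuous range. Just inside the rank limit were the regions nearest to Y62F5A.9 (rank 4999 in replicate 1), lelo-2 (4995 in replicate 2) and nhr-3 (4992 in replicate 1). Just outside it were those nearest to ZK418.5 (5007 in replicate 1), crtc-1 (5014 in replicate 2) and T22C1.6 (5031 in replicate 2). At the limit of distance, 36 regions had a summit 90 to 100 bp away in a replicate, and 28 further regions would have entered at 110 bp.

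**Figure D3:**
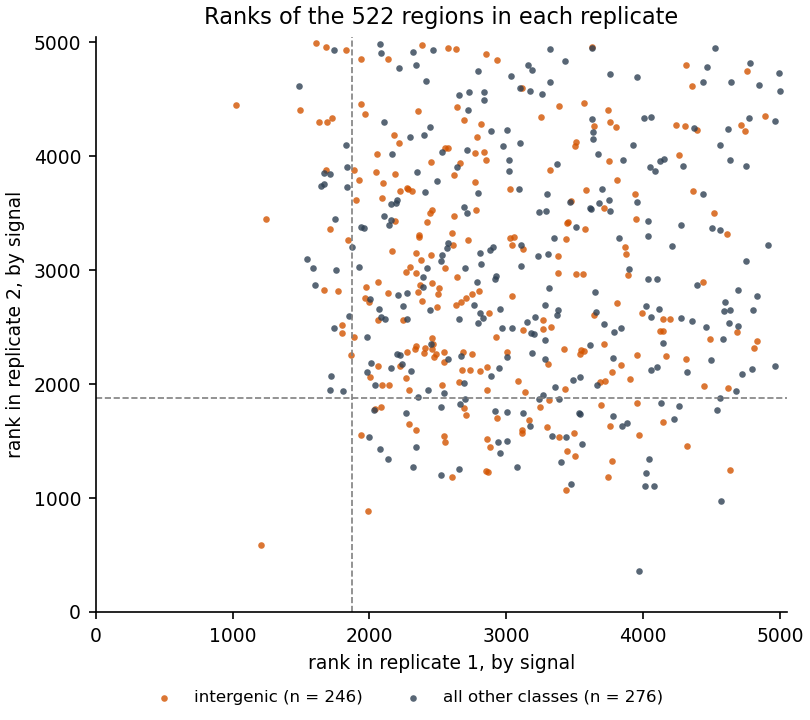
Rank in replicate 1 (x axis) against rank in replicate 2 (y axis) of the matched region for each of the 522 reproduced regions, coloured by intergenic summits and all other classes, with dashed lines at rank 1875, the length of the IDR list. The points spread over both axes with no common line, and 1 lies within the first 1875 of both. The rule kept ranks up to 5000 on both axes and left out pooled ranks 1 to 1875.

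Most of the 25 reproduced regions of highest pooled signal lay outside genes. Of these 25, 13 summits were intergenic, 4 intronic and 9 had a coding 5' end within 1000 bp. The strongest had a pooled signal of 66.1, ranked 2850 in replicate 1 and 1239 in replicate 2, and lay 2101 bp upstream of somi-1, which encodes a zinc-finger protein, on chromosome V from 13393314 to 13393677. The next lay in an intron of T24H7.2, close to the snoRNA gene T24H7.6 (signal 66.1), followed by one at the long non-coding RNA gene linc-171 near fath-1, a fatty acid hydroxylase gene (66.0), and one in an intron of ccch-1 (66.0).

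Among the others of these 25 were several genes of known function. The summit 154 bp upstream of dnc-2, a dynactin subunit gene, also served bcl-7 (65.9). That of emr-1, which encodes the nuclear membrane protein emerin, was 355 bp upstream (65.8; ranks 2339 and 2338). Introns of syd-2, a liprin of the presynaptic active zone (65.7), and of lin-14, a timing factor of the first larval stage (65.6), each held one. The lin-14 region ranked 1486 in replicate 1 and 4620 in replicate 2. The rest lay nearest to ZC581.9, F13C5.2, F33H1.4, Y57G11C.36, far-2, ZK546.19, acs-4, mvk-1, Y94H6A.5, Y22D7AL.10, D1044.7, rpi-2, aps-2, mrpl-20, Y7A9D.1, ZK673.2 and ZC190.4, with signals from 65.1 to 65.9.

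By the worse of the 2 replicate ranks, the best supported region was beside a spliced-leader gene. It was the only one within the first 1875 of both replicates, at rank 1211 in replicate 1 (signal 57.1) and 591 in replicate 2 (55.3), against a pooled rank of 2093 (61.3). The summit, at 5845026 on chromosome II, lay just past the end of sls-2.1 (5844865 to 5844974, plus strand), 1 of several near-identical genes for the SL2 RNA that is spliced onto messages of downstream operon genes. Reads shared among such copies make the position uncertain, and an IDR summit lay 214 bp away. Its window is shown because of these ranks, and has 21.8% G and C and AAGTT, in capitals in the orientation found, in 2 places (chrII:5844976-5845076, plus strand).
sls-2.1: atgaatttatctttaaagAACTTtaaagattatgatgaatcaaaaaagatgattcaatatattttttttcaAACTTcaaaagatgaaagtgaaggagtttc

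The next best by that measure lay nearest to C49F8.15 (ranks 1936 and 1556), C09E10.3 in an intron of dgk-1 (1805 and 1943), W06H8.6 (1713 and 1950), T28H10.2 (1989 and 889), W03G11.3 (1999 and 1532), ZC412.10 (2036 and 1771), C17E4.6 (2039 and 1989), ZC581.9 (2044 and 1781) and F33H1.4 (2004 and 2060). The window of the last, 110 bp upstream of F33H1.4, carries GAGAGA in 2 places (chrII:10174488-10174588, plus strand).
F33H1.4 summit: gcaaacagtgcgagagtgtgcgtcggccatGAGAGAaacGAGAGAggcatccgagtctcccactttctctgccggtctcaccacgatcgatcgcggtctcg

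Few of the regions touched an IDR peak. Of the 522, 8 overlapped an IDR peak, with their summits 200 to 215 bp from its summit. An IDR summit lay within 250 bp of 1.53% of the reproduced regions, 2.19% of the other regions of the same ranks and 0.329% of background. Within 1000 bp of an IDR summit lay 34 of the 522 (6.51%). The share was 6.60% of the other regions of the same ranks and 2.52% of background. The 8 were nearest to mrpl-20, tads-1, ZK1248.17 (the sls-2.1 region), spat-3, F20D12.12, ztf-6, jmjd-1.2 and mcm-10. The last was the weakest of all 522, at pooled rank 5503 (signal 38.3), and ranked 3973 in replicate 1 and 357 in replicate 2. The median distance to the nearest IDR summit was 9422.5 bp, against 13029 bp for the other regions of the same ranks and 21376 bp for background. Down to rank 2500, a limit chosen after the values had been seen, the medians were 10493 bp for reproduced and 11209 bp for other regions. An IDR summit lay within 250 bp of 1.89% and 4.89% of these, and within 1000 bp of 6.94% and 10.7%.

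Reproduced regions were farther from gene starts than IDR peaks. A coding gene started within 1000 bp of 213 of the 522 summits (40.8%, 36.6 to 45.2). The share was 63.1% of IDR peaks (60.9 to 65.3), 39.8% of the other regions of the same ranks (38.1 to 41.6) and 35.5% of background. Within the range, 20.7% of all reproduced regions were within 200 bp, against 13.8% of the other regions, 8.25% of background and 30.5% of IDR peaks. Of the 213, 145 lay upstream (68.1%) and 68 downstream, where upstream shares were 87.3% for IDR peaks, 52.4% for the other regions and 41.3% for background. The nearest coding 5' end was a median of 1431 bp away, against 444 bp for IDR peaks, and 222 regions lay beyond 2000 bp (42.5%).

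For intergenic sequence, introns, coding exons and non-coding exons the shares stood between those of IDR peaks and of background, and for UTRs they were above both. Intergenic sequence, taken as outside coding genes and outside exons of other genes, held 246 of the 522 summits (47.1%, 42.8 to 51.5), against 64.6% for IDR peaks, 34.2% for the other regions and 30.1% for background. Introns of coding genes held 120 (23%) and coding exons 67 (12.8%, 10.1 to 16). Coding exons held 2.35% of IDR summits, 27.9% of the other regions and 31.0% of background. Exons of pseudogenes and non-coding genes had 43 (8.24%), against 11.7% of IDR summits and 3.72% of background. The 5' UTRs had 24 (4.60%, 2.97 to 6.76), against 3.52% and 1.52%, and the 3' UTRs 22 (4.21%, 2.66 to 6.31), against 1.12% and 3.25%.

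**Figure D4:**
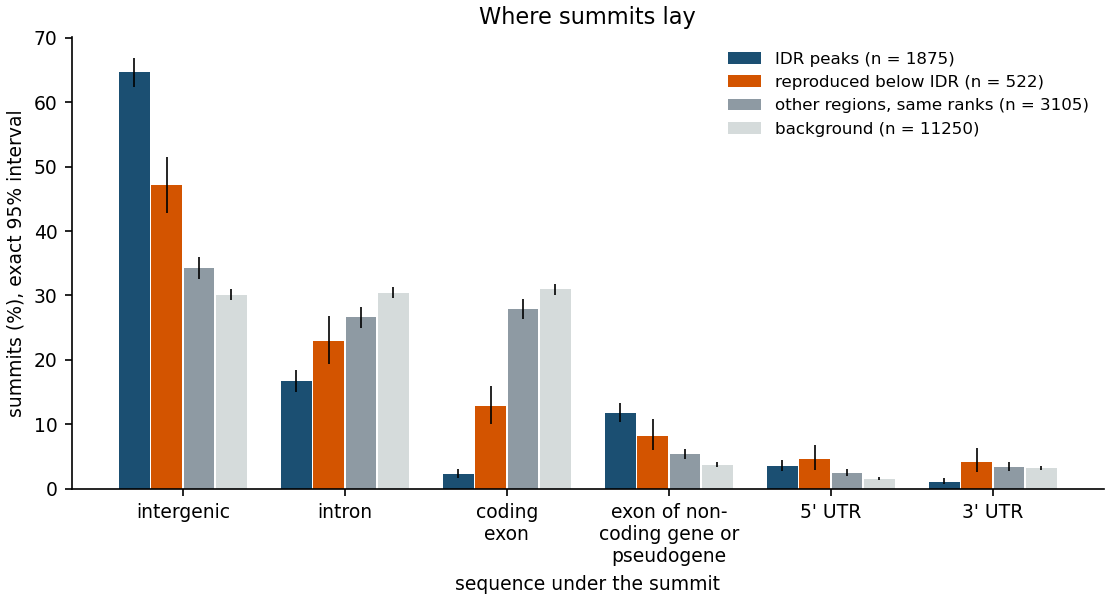
Share of summits, in percent with exact 95% intervals, in each class of sequence for the 4 sets of regions. Intergenic summits make up 47.1% of reproduced regions, between 64.6% of IDR peaks and 34.2% of the other regions of the same ranks.

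Reproduced regions lie higher in the pooled list than the others of the same span, so the sets were also set side by side near the threshold. Down to rank 2500, a limit chosen after the values had been seen, there were 317 reproduced and 307 other regions. A coding 5' end was within 1000 bp of 42.3% of the reproduced (36.8 to 47.9) and 48.5% of the others (42.8 to 54.3). Within 200 bp the shares were 23% and 21.2%, and upstream shares of those in range 70.9% and 64.4%. Intergenic summits made up 52.4% and 45.9%, and coding exons 9.15% and 12.7%. GAGAGA lay in 19.9% and 20.5%, CTGCGTCT in 7.26% and 6.19%, and AAGTT in 11% and 16%. For the shares within 1000 bp, of classes and of motifs the intervals of the 2 sets overlapped. G and C content was 45.9% and 46.5%.

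Chromosomes I, III and X held more reproduced regions than their share of coding genes. Chromosome I held 19.9% of them (1.38 times its share of coding genes), with 95 on III (1.38 times) and 99 on X (1.39 times). Chromosome IV held 88 (1.03 times), II 60 (0.666 times) and V 76 (0.582 times). IDR peaks gave 1.26 times on X and 0.933 times on II. The other regions of the same ranks gave 1.25 times on I, 1.46 times on III and 1.16 times on X, and background 1.13, 1.14 and 1.27 times, so these 3 chromosomes were above their gene share in every set. On X 57.6% of the reproduced regions were intergenic, on V 34.2%.

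Of 19973 coding genes, 265 had a reproduced region at the 5' end (1.33%), against 1615 with an IDR summit there (8.09%). Of the 265, 241 (90.9%) had no IDR summit at the 5' end and 24 had both (9.06%). That overlap is near the 8.09% of all coding genes with an IDR summit. Adding the 265 to the IDR genes would bring the total to 1856 (9.29%). Without replicate 1 the count of 265 would be 1186, and without replicate 2 it would be 1416. For ztf-11 itself the nearest reproduced region was 10717 bp away and an IDR summit lay at its 5' end. For unc-119, mutant in this strain, it was 94506 bp away and there was no IDR summit.

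The housekeeping lists given here had a reproduced region at 2.08% to 10.5% of their genes, and an IDR summit far more often. The share of all coding genes was 1.33%. These shares rest on 1 to 4 genes per list, and in most lists of this size 1 gene is enough to exceed 1.33%. Chaperones, listed further below, had 1 of 75 (1.33%). Ribosomal protein genes had an IDR summit at 49 of 81 members and a reproduced region at 2 (2.47%), rps-13 (signal 65.0, shared with nfx-1) and rps-8 (50.2). Mitochondrial ribosomal protein genes had 4 of 66 (6.06%): mrps-28 (64), mrps-25 (61.3), mrpl-53 (55.9) and mrps-23 (54.8). Splicing factors had 4 of 38 (10.5%), with the Sm-like genes lsm-7 (63.6), lsm-6 (56.9) and lsm-5 (50.5) and the SR protein gene rsp-8 (56.7). Translation factors had 3 of 69 (4.35%), ife-4 (an eIF4E, 63.2), eif-2gamma (61.1) and eif-2Bdelta (54.5). Respiration genes had atp-4, an ATP synthase subunit (63.1, 1 of 48), and proteasome genes rpn-2 (55.6, 1 of 33).

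Core histones had 6 of 72 genes with a reproduced region at the 5' end (8.33%), from 4 regions. The pair his-38 and his-40 shared one (63.6), his-7 and his-8 another (58.4), and his-69 (56.6) and his-74 (51.8) had one each, the former nearest to rcq-5 and the latter to ccch-3. Many histone genes have near-identical copies, which makes regions at such copies uncertain. Among chromatin regulators the gene of the H3K9 methyltransferase SET-25 (51.8, 2 bp downstream of the 5' end) and jmjd-1.2, a histone demethylase gene (40.8), had one, of 34. The E2F gene efl-2 (55.4, 968 bp upstream) was the 1 of 13 in the DREAM list, cyb-1, a cyclin B gene, the 1 of 35 among cell cycle genes (62.4, shared with orc-5), and mom-4, a kinase of the Wnt pathway, the 1 of 30 Wnt genes (56.6).

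In the other lists the counts at 5' ends were small, and for most a list of that size at the 1.33% of all coding genes would hold few or none. Epidermis and seam, intestine and germline genes had 0 of 29, 0 of 30 and 0 of 43, and chemoreceptor, neuropeptide and ceh homeobox genes 0 of 1310, 0 of 140 and 0 of 63. Muscle genes had hnd-1, a HAND factor (45.5, 1 of 39, 2.56%), collagens col-63 (63.8, 1 of 172), and chaperones hsp-12.2 (52.7, 1 of 75). Nuclear hormone receptors had 3 of 269: nhr-88 (59.8), nhr-91 (56.1) and nhr-3 (46). The Notch list had bre-5, a glycosyltransferase gene (52.7, 1 of 20). Pan-neuronal genes had 2 of 36 (5.56%), unc-26, the synaptojanin of synaptic vesicle recycling (64.6), and maco-1, a macoilin gene (57.2).

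**Figure D5:**
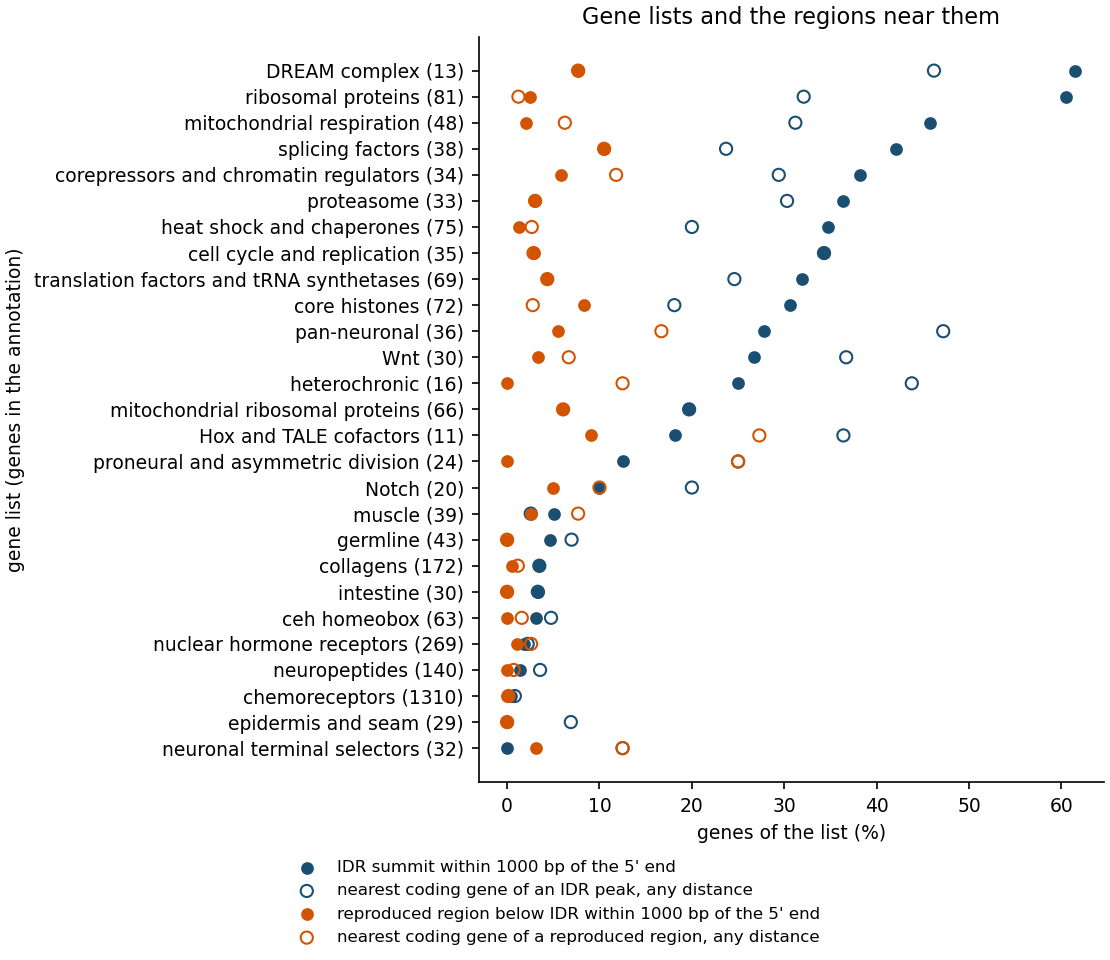
Share of the genes of each list, in percent, with an IDR summit or a reproduced region within 1000 bp of the 5' end (filled), or as the nearest coding gene at any distance (open). Ribosomal proteins have 60.5% for IDR summits and 2.47% for reproduced regions. The list of proneural and asymmetric division genes has 25% as nearest gene of either kind.

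With no limit of distance, some lists with few reproduced regions at 5' ends had more members counted. A reproduced region had 492 coding genes as its nearest (2.46% of coding genes), and an IDR peak had 1643 (8.23%). In the list of proneural and asymmetric division genes 6 of 24 were nearest to a reproduced region (25%), and 6 to an IDR peak. These were lin-32, hlh-2 and hlh-3, bHLH genes of the atonal, daughterless and achaete-scute families, with egl-27, egl-44 and egl-46. None of the 6 had a reproduced region within 1000 bp of the 5' end. Of the Hox genes and their TALE cofactors 3 of 11 were nearest (27.3%), lin-39, egl-5 and unc-62, of terminal selectors 4 of 32 (12.5%) and of pan-neuronal genes 6 of 36 (16.7%). For an IDR peak the shares were 36.4%, 12.5% and 47.2%. Other lists of transcription factors were near the share of all coding genes, with 1 of 63 ceh homeobox genes (1.59%) and 7 of 269 nuclear hormone receptors (2.60%). These counts include genes with a reproduced region at the 5' end, such as unc-62, unc-26 and maco-1. Gene length and the space around genes were not matched between lists, and their part in these counts was not tested. Coding genes with a reproduced region inside, 243 in all (1.22%), had a median length of 6019 bp. The median was 6141.5 bp for those with an IDR summit inside and 2027 bp for all coding genes. The genes described from here to the end of these loci were named after their values had been seen.

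The gene unc-62, which encodes a Meis-type cofactor of Hox proteins, held the most. Its body and the 5000 bp upstream (chromosome V, gene from 4497461 to 4511449) contained 5 reproduced regions and 3 IDR peaks. The summits were at 4497293 (signal 49.4; ranks 4447 and 1986), 4499245 (60.6; 2155 and 3443), 4499603 (54.4; 4224 and 1693), 4507369 (42.8; 3261 and 4545) and 4509743 (48.5; 4638 and 3964). Those at 4499245 and 4499603, 358 bp apart, are the closest pair of reproduced regions. Replicate 1 gave the better rank in 2 of the 5 and replicate 2 in 3.

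The Hox gene lin-39, which patterns the mid-body, had 2 reproduced regions and 1 IDR peak. Both lay inside it on exons of annotated non-coding RNA genes, at 7532287 on chromosome III in C07H6.18 (signal 64.3; ranks 2353 and 1886) and at 7530891 in C07H6.14 (58.4; 3006 and 1497). Both windows hold GAGAGA, and the stronger is shown with it in capitals (chrIII:7532237-7532337, plus strand). Another Hox gene, egl-5, which acts in the tail, had 1 at 1892 bp upstream (54.8) and no IDR peak in its body or the 5000 bp upstream.
lin-39: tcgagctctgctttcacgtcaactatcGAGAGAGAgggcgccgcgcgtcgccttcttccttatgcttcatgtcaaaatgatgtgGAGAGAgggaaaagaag

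Around lin-32, the atonal homolog that specifies touch and ray neurons, summits lay 1991 bp upstream (56.5; ranks 3007 and 2282) and, past the gene, 3091 bp downstream of the 5' end (61.3; 2636 and 4945). For hlh-2 the distance was 1012 bp upstream (51.8), for egl-46 3187 bp upstream (54.9) and for egl-27 7445 bp upstream (53.1). For hlh-3 (53.4) it was 3036 bp downstream, and for egl-44 (51.5) 4450 bp downstream in an intron. Of these genes lin-32 had 2 IDR peaks in its body and the 5000 bp upstream, egl-46 had 1, and hlh-2, hlh-3 and egl-44 had 0. Introns of zag-1, a ZEB homolog (56.7), and of egl-13, a SoxD gene (54), also held one.

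Among neuronal effector genes, unc-33 had the most. This CRMP homolog, needed for axon outgrowth, had 4 reproduced regions and 1 IDR peak in its body and the 5000 bp upstream. Of the 4, 1 lay in the 5' UTR of a neighbouring gene, tsg-101, 8 bp from its 5' end (53.2). The one 1051 bp upstream (signal 59.8; ranks 1927 and 3792) held both GAGAGA and CTGCGTCT. The one at 3521921, in an intron (58.1; 2918 and 1767), held neither, and the one at 3521150, in the same gene (54.6; 3777 and 2234), held CTGCGTCT. The last is shown with the motif in capitals (chrIV:3521100-3521200, plus strand). Others lay 2236 bp upstream of unc-31, the CAPS protein of dense-core vesicle release (62.5), and on an exon of a non-coding gene inside unc-44, an ankyrin gene (50.4).
unc-33: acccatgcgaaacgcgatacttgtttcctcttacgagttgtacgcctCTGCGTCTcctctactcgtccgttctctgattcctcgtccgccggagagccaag

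In the Wnt list 3 of 30 genes had a reproduced region inside the gene: cam-1, lit-1 and mom-4. The Notch list had 2 of 20, apx-1 and bre-5. The share of all coding genes was 1.22%, and gene length was not matched. An intron of lit-1, the Nemo-like kinase that acts with Wnt signals in asymmetric divisions, held one (64.7; ranks 1746 and 3446), 817 bp from an IDR summit. The gene of the ROR receptor CAM-1 held 2 (63.4 and 50.7), and that of the Notch ligand APX-1 held 1 (51.2), 485281 bp from the nearest IDR summit. The cyclin D gene cyd-1 held 2 in coding exons (58.4 and 48.3).

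Among non-coding genes, those of tRNAs had the most reproduced regions of the short-RNA classes. Within 150 bp of a tRNA gene lay 22 of the 522 summits (4.21%, 2.66 to 6.31). The share was 4.64% of IDR peaks, 2.29% of the other regions of the same ranks and 0.276% of background. Down to rank 2500 it was 5.05% of reproduced and 4.89% of other regions. The strongest was inside WBGene00014597 (signal 64.9; ranks 2007 and 2747), followed by WBGene00014617 (64.8; 2036 and 1771), WBGene00023134 (64.7; 2429 and 1946) and WBGene00014501 (64.2; 3781 and 1717). Many tRNA genes have near-identical copies. The count of 22 would be 51 without replicate 1 and 74 without replicate 2.

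snoRNA genes had 5 reproduced regions (0.958%, 0.312 to 2.22), against 3.73% of IDR peaks and 0.580% of the other regions. They were T24H7.6 (66.1), ZK546.18 (65.7), C27H6.5 (61.4), ZK185.9 (43.6) and R166.7 (43.2), each within a coding gene. The snRNA class had sls-2.1 and R07E5.16 (57.8), which is 0.383% of the reproduced regions. The share was 1.12% of IDR peaks, 0.290% of the other regions and 0.0533% of background. No miRNA or rRNA gene was within 150 bp of any of the 522, an upper limit of 0.704% for each class. The piRNA genes 21ur-8360 (64), 21ur-15630 (63.8), 21ur-4785 (59.4) and 21ur-14856 (48.7) each had one near, all on chromosome IV, where piRNA genes are dense. A piRNA gene was within 150 bp of 0.766% of the reproduced regions. The share was 0.640% of IDR peaks, 1.10% of the other regions and 2.24% of background. Other non-coding RNA genes had 67 (12.8%), against 17.4% of IDR peaks, 9.79% of the other regions and 4.29% of background.

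Repeats marked in lower case in the reference covered most of the summit window in 60 reproduced regions (11.5%, 8.89 to 14.5). The share was 9.39% of IDR peaks, 13.7% of the other regions and 23.4% of background.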

How the data were processed

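ChIP-seq for ZTF-11 with GFP was measured in 2 biological replicates of L1 larvae. The authors deposited lists of regions on ce10 and ce11: 30000 regions for each replicate and for the pooled replicates, background included, and the IDR list. Per the labels' accompanying text, regions were called against a control alignment. For the aligner, peak caller and IDR cut-off, names and settings were not given in the sources used here. Signal as deposited by the authors is the caller's own value for a region, and the deposited −log10 of the q-value is capped within each list. The summit is the deposited offset added to the region's start. No depth is given, so no precision per region can be stated.

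Regions were ranked by signal and matched by summit. Genes came from Ensembl release 115 on WBcel235 and sequences from RefSeq, on the same assembly. Classes were assigned in the order coding exon, 5' UTR, 3' UTR, other exon, intron, intergenic. Where messages are trans-spliced, transcription can start upstream of the annotated 5' end. The 27 gene lists give counts only. Named are the genes nearest to the 25 strongest regions, to the 10 of best worse rank and to those at the limits, up to 6 of each list with a region at the 5' end, up to 4 of each non-coding class, ztf-11 and unc-119; all 5 snoRNA genes are named. Genes with several regions or none at the 5' end, the printed windows, rank 2500, neighbouring bases and repeats were chosen after values had been seen. The members and lists were chosen with earlier results of these data known, and 5 lists were edited after the files had been looked at, before their counts were made. The matching was tested on simulated lists. Alternatives were other distances, list lengths, windows, ce10, and each replicate left out. Python 3.11.15, numpy 2.4.6, pandas 2.3.3, scipy 1.17.1 and matplotlib 3.10.9 were used.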

Additional observations from a re-analysis of the deposited data

How the results depend on the processing

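The rule's own limits set how many regions there are. With summits within 50 bp there were 321 regions, 171 genes with one at the 5' end and 12 regions at tRNA genes. Within 200 bp there were 765 regions, against 522 at 100 bp, and 410 such genes. With the 3000 strongest regions of each replicate the values were 135 regions, 55.6% intergenic, 82 genes, AAGTT in 8.89% and 8 at tRNA genes. With the 10000 strongest they were 1458, 39.6%, 682, 18.3% and 46, with GAGAGA in 15.2%. The 261 regions of highest pooled signal gave 52.1% intergenic, 141 genes and AAGTT in 8.43%. Leaving out a replicate gave 2566 to 2894 regions, 35.2% to 37.6% intergenic, 1186 to 1416 genes, AAGTT in 19.9% to 21.4%, GAGAGA in 11.9% to 13.5% and 51 to 74 at tRNA genes. A 5' end lay within 500 bp of 32.0% and within 2000 bp of 57.5%, with 436 genes at 2000 bp and 492 with the single nearest gene. Windows of 25 bp either side held AAGTT in 5.94% and GAGAGA in 10.3%, and windows of 100 bp in 29.7% and 28.4%. The cause of these moves was not tested beyond what each setting itself adds or removes. Of 67 values under other settings 28 moved by less than the limits set. Among them were the 765 regions at 200 bp, the 532 regions on ce10 and all values over 500 bp from every IDR summit. No paired analysis was possible because the samples form 1 group. Unknown depth limits what can be said of any single region.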
